A study of Mus musculus with 12 samples.

Results

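A group of 7 genes that encode chromatin, nuclear lamina and microtubule proteins of dividing cells was followed after loss of the arginine methyltransferase PRMT5: Hmgb2, Hmgn2, Hmga1, H2afz, Ezh2, Tmpo and Stmn1. They were taken by name from the deposited tables of changed genes, in which 2477 genes are listed in one or both of 2 cell types. All 7 are listed in neural progenitor cells and 4 of them in fibroblasts, and Tmpo has in addition a listed splicing event in progenitors. Because the genes were chosen from these same contrasts, their values are given as a description.

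The proteins act in different parts of the cell. Hmgb2 bends DNA with its HMG boxes, Hmgn2 binds nucleosomes, and Hmga1 binds AT-rich DNA in the minor groove with AT hooks. H2afz encodes the histone variant H2A.Z, and Ezh2 encodes the catalytic subunit of Polycomb repressive complex 2, which methylates histone H3. Tmpo encodes the lamina-associated LAP2 proteins, several of which sit in the inner nuclear membrane and bind B-type lamins, while one is nucleoplasmic. Stmn1 encodes stathmin, a cytoplasmic protein that sequesters tubulin. Cycling cells generally hold more of these transcripts than resting cells do.

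The series holds 12 RNA-seq libraries, 3 for each of 4 groups. All cells carried the genotype labelled Prmt5 F/FER on a mixed C57BL/6 X 129S1/SvlmJ background, so the ethanol groups carry the conditional allele too. Neural progenitor cells (NPC), E14.5 cortical neurospheres at day 4 in medium with EGF and FGF, received 50 nM 4-hydroxytamoxifen (4-OHT), which induces the deletion, or ethanol as vehicle, for 24 h. Mouse embryonic fibroblasts (MEF), primary E14.5 cells at passage 1 grown to confluence, received the same 2 treatments. No library comes from cells without the conditional allele, so effects of 4-OHT and of Prmt5 loss cannot be told apart. When after the 24 h cells were harvested, what drives the ER construct and whether the 3 libraries of a group came from separate animals or cultures are not stated in the labels.

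Expression is deposited as 1 RPKM value (read density scaled for transcript length and library size) for each arm, so no spread between libraries can be computed from it, and library totals are not given. The tables list genes with an unadjusted p-value of Cuffdiff under 0.05 and a change of at least 1.5-fold. Absence from a table can mean that a gene was not tested, missed the p limit or moved too little. Of 55341 annotated gene names, 4.37% are listed in NPC and 0.201% in MEF. The targeted gene was at 4.92 RPKM with 4-OHT and 33.4 RPKM with ethanol in NPC, and at 3.76 RPKM with 4-OHT and 21.0 RPKM with ethanol in MEF, in the authors' deposited table. Most markers of the labelled cell types could not be checked. Of 8 progenitor markers only Hes5 is listed in NPC, at 4.77 RPKM with 4-OHT and 15.8 RPKM with ethanol, and of 8 fibroblast markers 0 are listed in MEF.

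The letters of the Tmpo exon that was skipped more often with 4-OHT are shown first, since it is the single splicing event of these genes. The exon lies at chr10:90616023-90616142 on the minus strand in mm9, and matches by its own length and those of its neighbouring exons and introns the GENCODE M21 exon at chr10:91153278-91153397 in GRCm38, from whose transcript the sequence was read. It is exon 5 of 9 of transcript Tmpo-202, coding over its whole 120 bp, and begins in phase 0. It therefore adds 40 codons without shifting the frame, with 0 stop codons. Its GC content is 50.8%.
Tmpo exon 5: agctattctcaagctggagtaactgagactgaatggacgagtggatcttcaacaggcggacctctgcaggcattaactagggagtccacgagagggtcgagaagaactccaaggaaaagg

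The promoters of 6 of the 7 genes are in the RefSeq promoter table of GRCm38.p6, H2afz under its newer symbol H2az1. Stmn1 has no entry there, so its promoter was not searched. The 4 shown are those that hold more than 1 CCAAT box, with the 250 bases before the transcription start, 5′ to 3′ on the gene's strand. Capitals mark a CCAAT box (CCAAT, or ATTGG where it lies on the other strand) or a cell cycle homology region (CHR, TTTGAA, or TTCAAA on the other strand). CCAAT boxes are the textbook site of the factor NF-Y, and the CHR that of MuvB complexes, which act on cell cycle genes. The windows are chr8:57511593-57511842 (plus strand) for Hmgb2, chr3:137864237-137864486 (plus) for H2afz, chr6:47595031-47595280 (minus) for Ezh2 and chr10:91171620-91171869 (minus) for Tmpo.
Hmgb2: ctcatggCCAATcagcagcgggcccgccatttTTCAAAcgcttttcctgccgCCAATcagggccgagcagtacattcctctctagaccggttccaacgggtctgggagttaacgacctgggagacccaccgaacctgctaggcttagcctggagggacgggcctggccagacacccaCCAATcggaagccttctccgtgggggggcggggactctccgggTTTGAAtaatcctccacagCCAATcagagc
H2afz: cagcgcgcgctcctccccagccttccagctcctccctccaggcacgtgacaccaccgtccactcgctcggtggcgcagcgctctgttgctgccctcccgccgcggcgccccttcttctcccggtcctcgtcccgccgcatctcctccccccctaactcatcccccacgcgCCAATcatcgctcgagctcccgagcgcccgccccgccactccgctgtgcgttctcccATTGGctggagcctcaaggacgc
Ezh2: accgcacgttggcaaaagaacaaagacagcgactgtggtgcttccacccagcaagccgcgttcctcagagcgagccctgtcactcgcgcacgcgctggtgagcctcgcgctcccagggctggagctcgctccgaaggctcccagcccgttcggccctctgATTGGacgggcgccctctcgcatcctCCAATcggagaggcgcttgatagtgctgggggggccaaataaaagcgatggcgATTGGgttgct
Tmpo: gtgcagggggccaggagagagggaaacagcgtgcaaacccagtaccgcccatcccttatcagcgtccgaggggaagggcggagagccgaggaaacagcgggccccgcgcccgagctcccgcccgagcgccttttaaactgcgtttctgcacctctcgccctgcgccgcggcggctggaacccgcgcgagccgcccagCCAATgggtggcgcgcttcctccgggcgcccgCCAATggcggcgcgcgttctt

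All 7 genes were lower with 4-OHT in NPC. Of the 2416 genes listed there, 43.4% were lower, so a fall is not in itself unusual among listed genes. The share of lower genes was larger, at 60.5%, among those reaching 5 RPKM in either arm. It was 82.3% of those with at least 40 RPKM with ethanol, a limit set after the values were seen. That limit looks at the ethanol arm alone, where lower genes have their higher value and higher genes their lower one. Part of the 82.3% therefore follows from the limit itself. All 7 genes lie in that last range, though Ezh2 and Hmga1 were under 40 RPKM with 4-OHT. In bulk RNA, fewer cells of a type and less RNA per cell cannot be told apart. Their summed level was 769 RPKM with 4-OHT and 1374 RPKM with ethanol, a ratio of 0.560. The 172 lower genes with at least 40 RPKM with ethanol had a ratio of summed levels of 0.592.

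H2afz, the histone variant gene, was the highest of the 7. The authors' deposited table gives 235 RPKM with 4-OHT and 459 RPKM with ethanol in NPC, a fall of 48.8%. With ethanol only 2 listed genes were higher, and with 4-OHT it ranked 9. Its log2 fold change was -0.97, with a standard error of 0.14 derived from the deposited p-value.

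Among the high mobility group genes, Hmgb2 had the largest fall of the 7, to 65.9 RPKM with 4-OHT against 130.5 RPKM with ethanol in the authors' deposited table. This is a fall of 49.5%, or a log2 fold change of -0.99 (SE 0.14, derived). Hmgn2, the nucleosome-binding member, was at 186 RPKM with 4-OHT and 322 RPKM with ethanol in the authors' deposited table, a log2 fold change of -0.79 (SE 0.14, derived). Hmga1 was the lowest of the 7 in level. It was at 26.0 RPKM with 4-OHT and 42.7 RPKM with ethanol in the authors' deposited table, and its log2 fold change was -0.71 (SE 0.15, derived). Hmgn2 and H2afz belong to families with similar sequences, so reads could be split between copies in a way the tables do not show.

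Ezh2, Tmpo and Stmn1 fell by nearly the same fraction as Hmga1. Ezh2 was at 36.6 RPKM with 4-OHT and 59.97 RPKM with ethanol in the authors' deposited table, a fall of 39.0%. Tmpo was at 72.5 RPKM with 4-OHT and 118 RPKM with ethanol in the authors' deposited table, a fall of 38.8%. Stmn1 was at 147 RPKM with 4-OHT and 241 RPKM with ethanol in the authors' deposited table, a fall of 39.1%. Their log2 fold changes were -0.71, -0.71 and -0.71, with derived SEs of 0.14, 0.17 and 0.14.

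H2afz and Hmgb2 had the larger falls, Hmgn2 followed, and the other 4 genes lay together. The difference between the extremes, Hmgb2 minus Tmpo, was -0.28 on the log2 scale, with a derived 95% interval from -0.71 to 0.16, so it is within the error that the deposited p-values carry. That interval treats the genes as independent, though they come from the same libraries. The median log2 fold change of the 7 was -0.71, beside -0.77 over all 1049 lower genes and -0.72 over the 172 lower genes with at least 40 RPKM with ethanol. Since the tables hold no spread between libraries, the order of the levels, H2afz, Hmgn2, Stmn1, Hmgb2, Tmpo, Ezh2 and Hmga1 with ethanol, cannot be set against replicate error for any pair of neighbours. With 4-OHT, Tmpo stood above Hmgb2, and the rest of the order was the same.

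**Figure D1:**
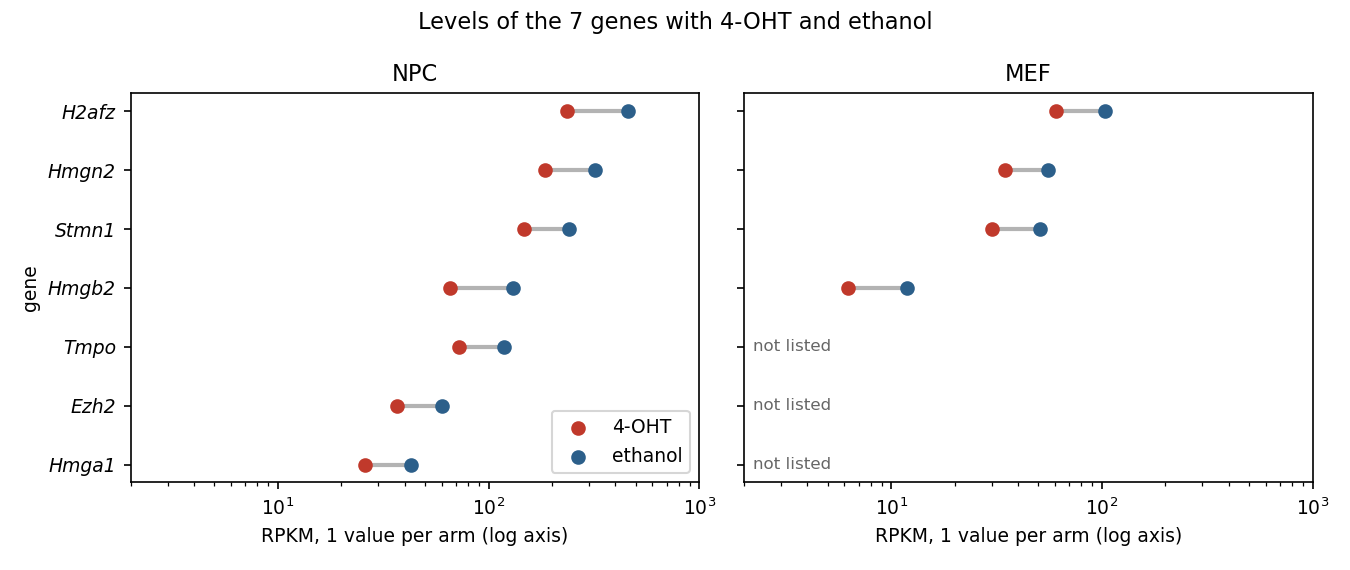
RPKM of each gene with 4-OHT (red) and ethanol (blue) in NPC and MEF on a log axis, with 1 deposited value for each arm and so no error bars. Every red point lies left of its blue point, from 26.0 against 42.7 RPKM for Hmga1 to 235 against 459 RPKM for H2afz in NPC, and Tmpo, Ezh2 and Hmga1 are not listed in MEF.

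The deposited p-values of the 7 genes in NPC run from 4.30e-12 for Hmgb2 to 3.87e-05 for Tmpo. Adjusted by Benjamini-Hochberg with all 55341 annotated gene names counted as tested, the p-values of Cuffdiff stayed at or under 0.00165 for each of the 7. All 7 had a deposited p under 0.01, as did 85.6% of the listed genes. None of the 7 reached a 2-fold fall, which 7.49% of the listed genes did.

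In MEF 4 of the 7 genes are listed, and all 4 were lower with 4-OHT. Lower there were also 49.5% of the 111 listed genes and 67.1% of those reaching 5 RPKM in either arm. With at least 40 RPKM with ethanol the share was 93.8%, under a limit on the ethanol arm alone, which favours lower genes. H2afz was at 60.8 RPKM with 4-OHT and 104 RPKM with ethanol in the authors' deposited table. Hmgn2 was at 34.5 RPKM with 4-OHT and 55.4 RPKM with ethanol, and Stmn1 at 30.3 RPKM with 4-OHT and 50.6 RPKM with ethanol, in the authors' deposited table. Hmgb2 was at 6.21 RPKM with 4-OHT and 11.8 RPKM with ethanol in the authors' deposited table. The order of these 4 by level was the one they have with ethanol in NPC. Ezh2, Hmga1 and Tmpo have no row in the MEF table, and whether they moved there is unknown. No splicing event of any of the 7 genes is listed in MEF, where 78.1% of the listed skipped exons had lower inclusion with 4-OHT.

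The MEF calls rest on far weaker p-values. The deposited p of Cuffdiff was 0.0117 for Hmgb2, 0.0164 for H2afz, 0.0313 for Stmn1 and 0.0440 for Hmgn2, unadjusted, and the adjusted bound over all annotated names was 1 for each. The share of listed MEF genes with a p under 0.01 was 13.5%, and none of the 4 is among them. None of the 4 reached a 2-fold fall, which 14.4% of the listed genes did.

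Fold changes of the 4 genes are given side by side for the cell types. Hmgb2 had log2 fold changes of -0.93 in MEF and -0.99 in NPC, and the difference, MEF minus NPC, was 0.06 with a derived 95% interval from -0.72 to 0.83. For H2afz the values were -0.77 in MEF and -0.97 in NPC, with a difference of 0.20 and an interval from -0.50 to 0.89. Hmgn2 had -0.68 in MEF and -0.79 in NPC, a difference of 0.11 with an interval from -0.61 to 0.83. For Stmn1 they were -0.74 in MEF and -0.71 in NPC, with a difference of -0.03 and an interval from -0.75 to 0.70. Each interval leaves room for a much smaller or a much larger fall in MEF than in NPC, so the values do not show equal responses. A gene also enters this comparison only if its MEF change passed the limits for listing. The smallest absolute log2 fold change listed in MEF was 0.65. Smaller falls are thus left out, which by itself brings the MEF values nearer to those of NPC, and the intervals do not allow for that. The 4 genes belong to the 27 that were lower in both cell types, which are 55.1% of the 49 genes listed in both and 2.57% of the 1049 genes lower in NPC.

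Levels of all 4 were higher in NPC than in MEF. With ethanol Hmgb2 was 11.03-fold higher in NPC than in MEF, Hmgn2 5.81-fold, Stmn1 4.77-fold and H2afz 4.43-fold. With 4-OHT the corresponding ratios were 10.6, 5.38, 4.86 and 3.87. The tables of the cell types came from separate comparisons, so these ratios were not tested.

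**Figure D2:**
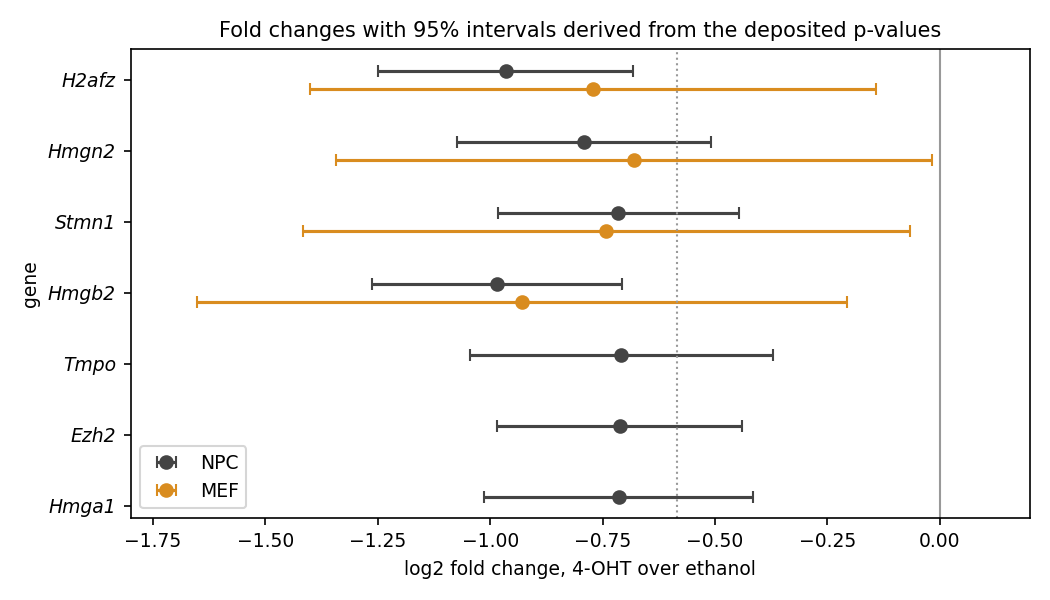
Log2 fold changes, 4-OHT over ethanol, of each gene in NPC (grey) and MEF (orange), with 95% intervals derived from the deposited p-values, a solid line at no change and a dotted line at a 1.5-fold fall. All 11 values lie left of the dotted line, as the 1.5-fold limit for listing requires of any listed fall. The MEF intervals, such as -1.65 to -0.21 for Hmgb2, contain the NPC values.

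Markers of cycling cells moved with these genes. All 9 of the 9 are listed in NPC and were lower, with log2 fold changes from -1.23 to -0.69 and a summed level of 471 RPKM with 4-OHT and 894 RPKM with ethanol. Lower were also 43.4% of all listed NPC genes and 82.3% of those with at least 40 RPKM with ethanol, a limit that favours lower genes. All 9 but Ccnb2, at 32.0 RPKM with ethanol, lie in that range. In MEF 4 of the 9 are listed, and these 4 were lower, as were 67.1% of listed genes reaching 5 RPKM in either arm. Most listed markers of more mature neural cells were higher in NPC, as were 56.6% of all listed genes. Of 6 astrocyte markers 4 are listed, all higher, with summed levels of 139 RPKM with 4-OHT and 79.2 RPKM with ethanol. Most of that sum is Aldh1l1, at 118 RPKM with 4-OHT and 67.7 RPKM with ethanol. Of 7 oligodendrocyte markers 5 are listed, 4 of them higher, with summed levels of 23.8 RPKM with 4-OHT and 10.6 RPKM with ethanol. Of 8 neuron markers 4 are listed, 3 of them higher, with 12.2 RPKM with 4-OHT and 6.33 RPKM with ethanol. Of 5 endothelial markers 2 are listed, and of 6 markers of microglia and blood 1, all higher with 4-OHT and at low levels. Flt1 was at 0.118 RPKM with 4-OHT and 0.0658 RPKM with ethanol, Tek at 0.140 RPKM with 4-OHT and 0.0804 RPKM with ethanol, and Cd14 at 1.12 RPKM with 4-OHT and 0.569 RPKM with ethanol, in the authors' deposited table. The adjusted bounds of Cuffdiff's p for Flt1, Tek and Cd14 were 0.625, 0.958 and 0.0630, so none was under 0.05. No listed marker was at 0 in either arm. The part of these shifts in the falls of the 7 genes was not tested.

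Tmpo was also spliced differently in NPC. Inclusion of its 120 bp exon is deposited for 3 pairs of libraries, each with 1 4-OHT and 1 ethanol library under a shared code that matches no label. The inclusion levels with 4-OHT were 0.496, 0.509 and 0.466 in pairs 24, 26 and 28, and with ethanol 0.860, 0.845 and 0.855. All 3 libraries with 4-OHT lay below all 3 with ethanol, with nothing in between. The means were 0.490 ± 0.022 with 4-OHT and 0.853 ± 0.008 with ethanol (SD, n = 3 each), a difference of -0.363, and the difference was -0.364, -0.336 and -0.389 in the 3 pairs. The event is listed because of this difference, which is therefore not tested again. Of the 135 skipped exons listed in NPC, 62.2% had lower inclusion with 4-OHT. Tmpo ranked 37 among the 135 by the size of its fall, and 5 among the 27 that are listed in all 3 pairs. By the size of the change in either direction it ranked 63 among the 135 and 9 among the 27.

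The reads behind these levels changed mainly on the inclusion side. With 4-OHT the 3 libraries held 272, 498 and 341 inclusion reads, and with ethanol 1069, 2424 and 1438. Exclusion reads numbered 70, 122 and 99 with 4-OHT, against 44, 113 and 62 with ethanol. Summed over the libraries, inclusion reads with 4-OHT were 0.225 of those with ethanol, while exclusion reads were 1.33 times as many. Total reads of the event were 0.307, 0.244 and 0.293 of those with ethanol in the 3 pairs. The other events listed in the same pairs, with at least 20 reads in each arm, had median ratios of 1, 1.13 and 1.304. The share of other events with a ratio as low as that of Tmpo or lower was 0%, 1.63% and 1.18% of 119, 184 and 169 events. The other events are of all types, and a loss of inclusion by itself lowers the total reads of an event. How much of the low place of Tmpo among them goes with its lower inclusion was not tested. Library totals are not given, so these ratios are not corrected for depth.

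Reads over this event fell by more than the RPKM of the whole gene, whose ratio of 4-OHT over ethanol was 0.612. The 2 measures are not alike. By the deposited levels, a transcript with the exon yields 3.93 to 3.96 times the counted reads of a skipping one. More skipping thus lowers the total reads by itself, by an amount that was not set against the fall seen. The RPKM also covers transcripts outside this event. As plain shares of reads, without the correction for length, inclusion was 79.5%, 80.3% and 77.5% with 4-OHT, against 96.0%, 95.5% and 95.9% with ethanol. The 95% Wilson intervals, which cover counting error only, ran from 73.4% to 83.5% across the libraries with 4-OHT and from 94.7% to 97.0% across those with ethanol.

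In the annotation, 1 coding transcript of Tmpo holds this exon and 1 joins these same neighbours directly. The other 3 match neither pattern by exon and intron lengths. Whether Tmpo-204 and Tmpo-205, which are among them, leave out the exon together with a neighbour was not examined. Tmpo-202, with the exon, has a coding length of 1356 bases, and Tmpo-203, which joins the 98 bp exon before it to the 96 bp exon after it, has 1236 bases. The intron before the exon is 5350 bp long and the one after it 97 bp. Tmpo-201, with a coding length of 2079 bases, ends before the exon.

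**Figure D3:**
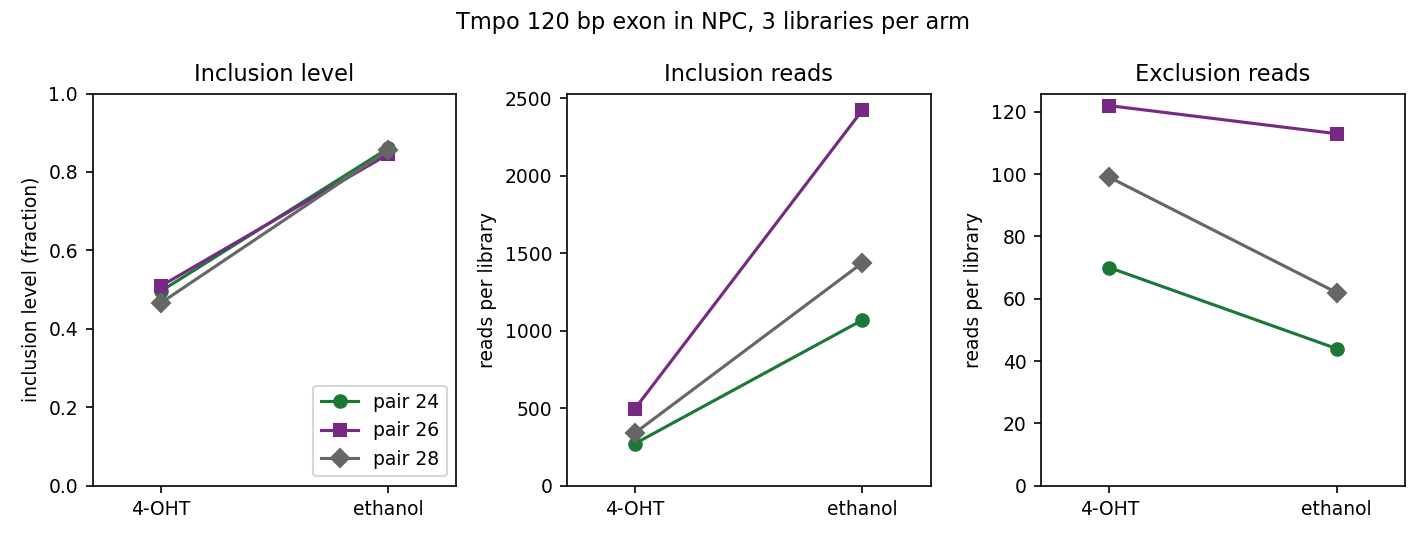
Inclusion level of the Tmpo exon as a fraction (left), inclusion reads (middle) and exclusion reads (right) in the 3 libraries with 4-OHT and the 3 with ethanol in NPC, with lines joining libraries of the same pair code. Levels lie between 0.466 and 0.509 with 4-OHT and between 0.845 and 0.860 with ethanol, and exclusion reads are higher with 4-OHT in each pair.

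Related chromatin genes that are not among the 7 went mostly the same way in NPC. Of 123 other genes in 8 lists of related function, 37 are listed, 31 of them lower and 6 higher, with a median log2 fold change of -0.74, beside 43.4% lower among all listed genes. Among those reaching 5 RPKM in either arm, 30 of 34 were lower, beside 60.5% of all listed genes of that level. With at least 40 RPKM with ethanol, 16 of 16 were lower, beside 82.3%. Both of these rest on the ethanol arm alone, which favours lower genes. The lists were written with earlier results of these data known, so they are not independent evidence of direction.

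The high mobility group list shows 3 further members, all lower: Hmgb1, at 102 RPKM with 4-OHT and 176 RPKM with ethanol in the authors' deposited table, Hmgb3 and Hmgn5, with log2 fold changes of -0.79, -0.69 and -0.80. With Hmgb2, Hmgn2 and Hmga1, 6 of the 12 genes in that list were lower and 0 higher. Of 17 further genes of H2A variants and their loading, 3 were lower and 1 higher. H2afx, the variant phosphorylated at DNA breaks, had a log2 fold change of -0.77, the macroH2A gene H2afy2 -0.73, and Actl6a, an actin-related subunit of chromatin complexes, -0.60. H2afj went against the rest, at 12.8 RPKM with 4-OHT and 5.43 RPKM with ethanol in the authors' deposited table, a log2 fold change of 1.23.

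Histone chaperones and assembly factors had the most listed members, 10 of 18, and all 10 were lower. Asf1b, which hands histones to assembly factors, had the largest fall, at 9.33 RPKM with 4-OHT and 21.7 RPKM with ethanol in the authors' deposited table. Chaf1b of chromatin assembly factor 1, the histone chaperone Nasp and the centromeric histone Cenpa had log2 fold changes of -1.004, -0.92 and -0.87. Cenpa is the single gene of the 123 that is listed in MEF, at 11.03 RPKM with 4-OHT and 19.3 RPKM with ethanol in the authors' deposited table. Both listed linker histone genes, H1fx and H1f0, were lower, with log2 fold changes of -1.08 and -0.69.

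Of 11 genes of Polycomb repressive complex 2 only Ezh2 is listed in NPC, and none is listed in MEF. Ezh1, the paralog of Ezh2, and the core subunit genes Eed and Suz12 are among those without a row. In the list of DNA methylation and heterochromatin 5 of 17 genes were lower and 0 higher. Uhrf1, which recruits the maintenance methyltransferase, was at 33.3 RPKM with 4-OHT and 68.1 RPKM with ethanol in the authors' deposited table. The methyltransferase gene Dnmt1 had a log2 fold change of -0.66, Suv39h2, for a histone methyltransferase of heterochromatin, -0.66, and the corepressor Trim28 -0.59.

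In the lamina list, besides Tmpo, 6 of 21 genes were lower and 2 higher in NPC. The B-type lamin genes were both lower: Lmnb1 was at 92.4 RPKM with 4-OHT and 167 RPKM with ethanol, and Lmnb2 at 9.80 RPKM with 4-OHT and 20.2 RPKM with ethanol, in the authors' deposited table. Lbr, the lamin B receptor of the inner membrane, had a log2 fold change of -0.96, and Ankle1, a LEM-domain endonuclease, -1.62. The A-type lamin gene Lmna was higher, at 9.49 RPKM with 4-OHT and 5.03 RPKM with ethanol in the authors' deposited table. The other exception was Syne1, for a giant nesprin of the outer nuclear membrane, listed on 2 rows, at 0.307 RPKM with 4-OHT and 0.0876 RPKM with ethanol and at 2.27 RPKM with 4-OHT and 1.299 RPKM with ethanol. None of these is listed in MEF.

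Stathmins and tubulins were divided. The tubulin genes Tuba1b and Tuba1c were lower like Stmn1, with log2 fold changes of -0.80 and -0.66, and Tuba1b was the highest listed gene with ethanol, at 488 RPKM with 4-OHT and 850 RPKM with ethanol in the authors' deposited table. The other 3 listed genes of these families were higher, and of them only Tubb3, a neuronal tubulin gene, had an adjusted bound of Cuffdiff's p under 0.05, while the bound was 0.0794 for Stmn4 and 0.677 for Stmn2. Tubb3 was at 9.59 RPKM with 4-OHT and 4.81 RPKM with ethanol, Stmn4 at 6.40 RPKM with 4-OHT and 4.13 RPKM with ethanol, and Stmn2 at 0.108 RPKM with 4-OHT and 0.032 RPKM with ethanol, in the authors' deposited table.

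**Figure D4:**
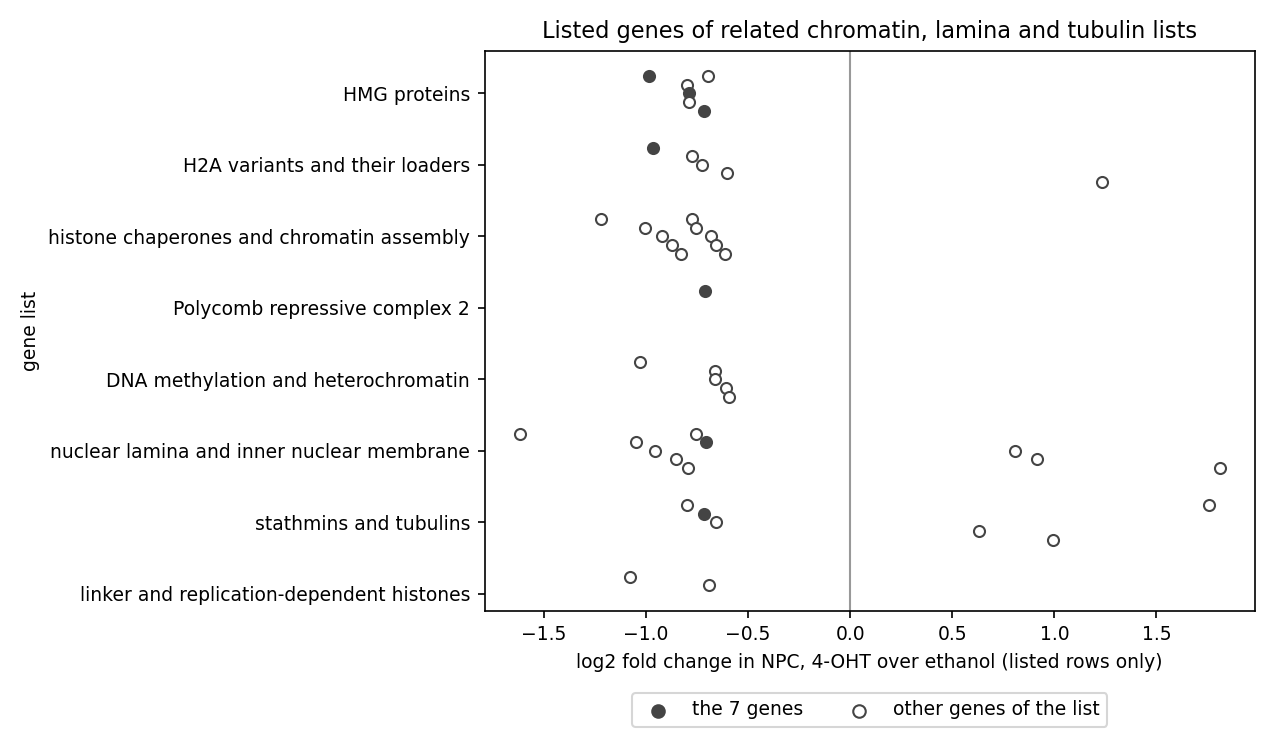
Log2 fold changes in NPC, 4-OHT over ethanol, of all listed rows of the 8 gene lists, with the 7 genes filled and other genes open. The chaperone list lies wholly left of 0, from -1.22 to -0.61, while the lamina list runs from -1.62 to 1.81 and the stathmin and tubulin list from -0.80 to 1.76.

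The genes nearest to each of the 7 in level were sought among those listed as changed in NPC, by the distance between log2 RPKM values in both arms. This measure rests on 2 values of 1 cell type and is a description. Nearest to Stmn1 were Pcna, the replication clamp gene, and Ranbp1, at distances of 0.05 and 0.10. Nearest to Tmpo were Rrm1, for the large subunit of ribonucleotide reductase, and Acly, and nearest to Ezh2 were Rbmx and Tead2. Hmgb2 was nearest to Tpm4 and Acly, Hmgn2 to Npm1 and Hmga1 to Vps25 and Pmf1. H2afz, which ranked 3 among the listed genes with ethanol, had no close neighbour among them, with Cdk4 next at 0.26.

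The promoter windows, from 250 bp before to 50 bp after the start, were searched on both strands for CCAAT, for the CHR TTTGAA and for the E2F core GCGGGAA, and no match overlapped another. A CCAAT box was found in 5 of the 8 windows of the 6 genes, and in 37.4% of all 32851 windows. Hmgb2 held 4, H2afz and Ezh2 3 each, the first start of Tmpo 2 and Hmgn2 1, which straddles the start. Of all windows 3.37% hold 3 or more. The share was 9.12% for genes listed as lower in NPC, which include these genes, and 2.82% for those listed as higher. In the 4 windows printed above, the box nearest to the start lay at -11 to -7 in Hmgb2 and Ezh2, at -23 to -19 in H2afz and at -21 to -17 in Tmpo. H2afz had a further box at 23 to 27 after the start, which is not printed.

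The CHR was found in the window of Hmgb2, at -30 to -25 and, on the other strand, at -218 to -213, and at the second start of Tmpo at -28 to -23. It is in 17.9% of all windows. The second start of Tmpo also held 2 matches to the E2F core, which is in 4.60% of all windows. Neither of the 2 windows of Hmga1 held any of the 3 motifs, which says only that these letters are not in these windows. Among windows of genes listed as lower in NPC, 45.9% held CCAAT, 17.8% the CHR and 14.2% the E2F core. For genes listed as higher the shares were 35.8%, 11.5% and 6.13%. These shares were not tested. The GC content of the 8 windows of the 6 genes ran from 46.3% to 74.0%, with a median over all windows of 52.7%.

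**Figure D5:**
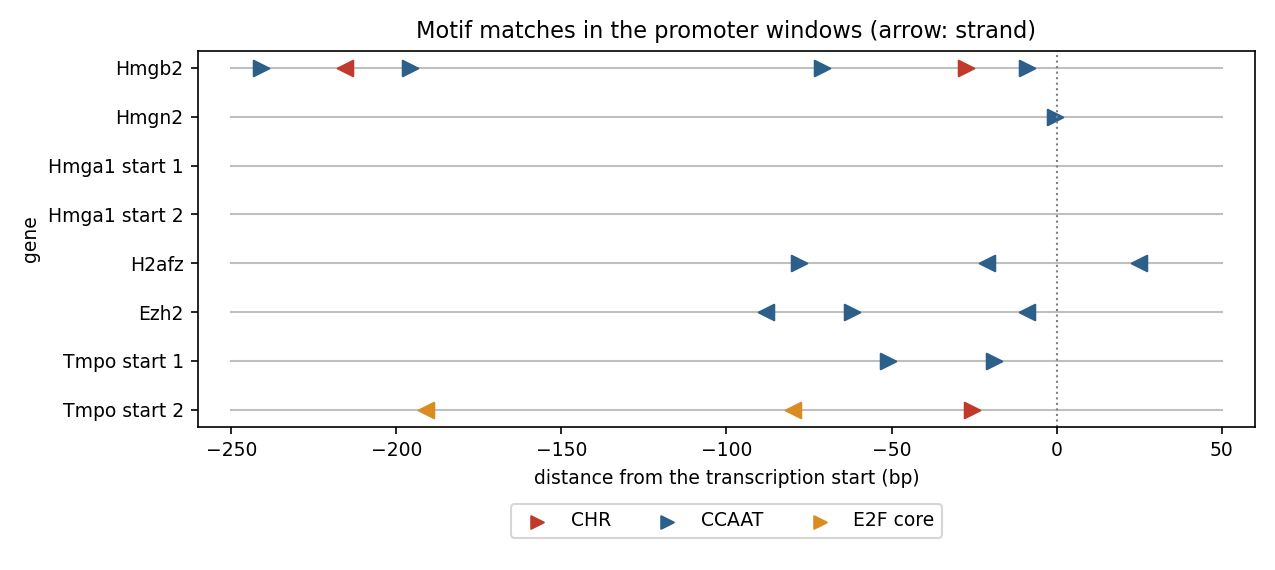
Positions of CCAAT (blue), CHR (red) and E2F core (orange) matches in the promoter windows, in bp from the transcription start, with arrows for the strand and 1 line for each annotated start. The CCAAT matches of Ezh2 lie from -90 and those of Tmpo from -53 to the start, H2afz has 1 after the start, and those of Hmgb2 begin at -243.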

How the data were processed

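The submitters' processing notes name CASAVA 1.8, TopHat2 2.03, Bowtie2 2.0.0.6, Cuffdiff 2.02 and the build mm9, without settings. The RPKM of each arm, the log2 fold change and the unadjusted p-value were deposited by the authors. Recomputed log2 values matched the deposited ones to within 1.2e-05. The splicing tables hold, per the file headers, counts of inclusion and exclusion reads, the inclusion level as a fraction and its difference as a signed score deposited by the authors. The caller's version is not given in the sources used here.

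The 7 genes and the 8 lists were chosen with earlier results of these data known. Genes named from a list are the up to 4 with the largest absolute log2 fold change that reach 5 RPKM in either arm, plus those against the list's majority. Standard errors were derived as the log2 fold change over the normal deviate of the deposited p-value, and 95% intervals from them. Adjusted p-values are upper bounds of the Benjamini-Hochberg value with 55341 names counted as tested. The derivation and the bound were checked on simulated data made with the same normal formula. Whether Cuffdiff's p-values follow that formula was not tested. The motif search was checked on a string built from the motifs. Python 3.11.15, pandas 2.3.3 and scipy 1.17.1 were used.

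The splicing tables' pair codes were kept as deposited. Over the 57 NPC events listed in 3 pairs, the deviations from the arm means had same-code correlations of 0.177, 0.160 and 0.123, and the event filter itself favours positive values.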

Additional observations from a re-analysis of the deposited data

How the results depend on the processing

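All 7 genes were still counted as lower in NPC with a deposited p under 0.01, with the adjusted bound under 0.05 and with the limits of 1, 5 and 40 RPKM, the last chosen after seeing the data. When a 2-fold change was required, 0 of the 7 and 6 of the 31 other list genes were left. In MEF, 0 of 4 were left with a p under 0.01, with the adjusted bound and with a 2-fold change, and the same 3 settings left 0 of 1 other list gene. A pseudocount of 1 moved no fold change by more than 0.02 in NPC or 0.10 in MEF. Shifting by the median of listed genes with at least 5 RPKM, -0.64 in NPC and -0.77 in MEF, left falls of -0.35 to -0.07 in NPC and turned Hmgn2 to 0.0897 and Stmn1 to 0.0293 in MEF. That median is itself taken over genes listed as changed, and in MEF it is the value of H2afz, whose shifted value is 0 by construction. The shift moves every gene by the same amount, and the deposited calls were not made again after it. After the shift no fall of the 7 genes reached 1.5-fold in either cell type.

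The Tmpo exon difference was -0.359 with pooled reads and -0.363 with at least 20 reads in both arms. It was -0.167 as a plain share of reads, without the length correction. Leaving out each pair in turn gave -0.3765 to -0.350. With the pairing as a replicate block it was -0.363, and no call changed. The expression tables hold 1 value per arm, so no library could be left out there, and depth is unknown.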

Other observations

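Several other genes of the 8 lists have listed splicing events. In NPC a retained intron of Setdb1, a histone methyltransferase gene, had an inclusion level of 0.514 ± 0.014 with 4-OHT and 0.203 ± 0.026 with ethanol (SD, n = 3 each). A retained intron of Ankle1, which also fell in level, had mean levels of 0.819 ± 0.257 with 4-OHT and 0.442 ± 0.171 with ethanol over 2 listed pairs (SD). A skipped exon of Tubb4b had mean levels of 0.754 with 4-OHT and 1 with ethanol over 2 pairs. For Setd8 a skipped exon had levels of 1 with 4-OHT and 0.283 with ethanol over 3 pairs, on as few as 9 and 8 reads in an arm. In MEF a retained intron of Aebp2, a cofactor of Polycomb repressive complex 2, had mean levels of 1 with 4-OHT and 0.390 with ethanol over 2 pairs. Events are listed for their difference, so these values are a description and the third pair of an event listed in 2 is unknown.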
